A study of Mus musculus with 6 samples.

Results

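The bone morphogenetic protein (BMP) and transforming growth factor beta (TGF-beta) signalling genes described here are Bmp4 and Bmp6 (ligands), Acvrl1 and Tgfbr1 (type I receptors), Bmpr2 and Tgfbr2 (type II receptors), Eng and Tgfbr3 (co-receptors), and Smad6 and Smad7 (inhibitory Smads). They were taken from a list of 10 gene symbols, and all 10 were measured, out of 18193 named genes on the arrays. The array annotation gave them 20 probe sets that name no other gene. Each gene is described by its brightest probe set (by the mean of all 6 arrays), with its other probe sets beside it.

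RNA of 6 samples of sorted cells was measured on single-colour Affymetrix 430-2.0 arrays. The cells came from skeletal tissue of the fore and hind limbs of mice at postnatal day 3, with the limbs of a litter pooled. The Tie2-positive population (3 arrays) lacked CD45, a surface protein of white blood cells, and Ter119, an antigen of red-cell precursors, was low for integrin alpha V (Itgav), and carried Tie2, a receptor for angiopoietins (gene Tek). The Tie2-negative population (3 arrays) lacked all 4 antigens. The labels call the mice wild type, and their protocol also speaks of GFP-labelled mice. No treatment was given, and all samples share the collagenase digestion, the antibody staining and a double round of RNA amplification. Whether the replicates of a population stem from different litters is not stated, so the p-values rest on a spread between samples that may be technical. CD105, the protein encoded by Eng, was also stained for sorting, but the sample titles name it in neither gate.

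Ligands of this family bind a pair of type II and a pair of type I receptors, both serine/threonine kinases. The type II receptor activates the type I receptor, which phosphorylates receptor-regulated Smads, and these enter the nucleus with Smad4. BMP receptors act through Smad1, Smad5 and Smad9, and the classical TGF-beta receptor pair through Smad2 and Smad3. Smad6 and Smad7 are induced by the pathway and inhibit it. Endothelial cells are known for Acvrl1 (ALK1) and its co-receptor endoglin, which respond to the circulating ligands encoded by Gdf2 and Bmp10. In humans, mutations in ACVRL1 and ENG cause hereditary haemorrhagic telangiectasia, and mutations in BMPR2 cause pulmonary arterial hypertension.

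Values are on a log2 scale after quantile normalization, and a change is Tie2-positive minus Tie2-negative, so that a change of 1 is a doubling. The test was limma's moderated test over all 18193 genes, two-sided, called at a Benjamini-Hochberg adjusted p under 0.05. In the sort check, Tek gave levels of 12.06, 10.86 and 9.80 in Tie2-positive replicates 1, 2 and 3, against 4.81, 4.79 and 4.90 in Tie2-negative replicates 1, 2 and 3. Ptprc, which encodes CD45, gave 4.87, 9.95 and 11.23 in the Tie2-positive arrays, against 9.52, 10.41 and 9.42 in the Tie2-negative arrays, although both gates excluded CD45. Correlations over all genes ran from 0.898 to 0.980 between Tie2-positive arrays, with replicate 1 furthest from the others, and from 0.969 to 0.983 between Tie2-negative arrays. Across the populations they ran from 0.802 to 0.932. Tie2-positive replicates 2 and 3 correlated with Tie2-negative replicate 3 by 0.932 and 0.927, against 0.929 and 0.898 with Tie2-positive replicate 1.

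The populations were mixtures by their marker genes, and the Tie2-positive arrays differed in theirs. The median level of 10 endothelial markers was 10.91, 9.25 and 8.36 in Tie2-positive replicates 1, 2 and 3, against 5.98, 5.80 and 5.56 in the Tie2-negative arrays, and 7 of the 10 rose. The median of 8 neutrophil markers was 6.03, 12.11 and 13.51 in Tie2-positive replicates 1, 2 and 3, against 6.24, 8.13 and 8.88 in the Tie2-negative arrays. The median of 8 megakaryocyte and platelet markers was 6.47, 9.32 and 8.18 in the Tie2-positive arrays, against 6.33, 6.25 and 6.66 in the Tie2-negative arrays. Red-cell and early B-cell markers stood on the other side: 8 erythroid markers had medians of 5.92, 8.14 and 5.46 in the Tie2-positive arrays, against 12.44, 11.31 and 11.26 in the Tie2-negative arrays. The 9 B-lineage markers had medians between 5.40 and 5.74 in the Tie2-positive arrays, against 7.84 to 10.46 in the Tie2-negative arrays. In limma 5 of the 8 erythroid and 6 of the 9 B-lineage markers fell. All Tie2-positive values lay below all Tie2-negative values for 8 of 8 erythroid and 7 of 9 B-lineage markers. None of 11 skeletal and fibroblast markers passed the test in limma, also at an unadjusted p under 0.05 (0 genes). Their medians lay between 5.62 and 6.36 in the Tie2-positive and between 5.67 and 5.87 in the Tie2-negative arrays. Among them Col1a2, a type I collagen gene chosen after its values were seen, gave 9.09, 8.98 and 10.18 in the Tie2-positive arrays. Its Tie2-negative values were 8.30, 8.59 and 8.83, without overlap. Such a separation, higher in Tie2-positive, held for 1 of the 11 markers and for 15.2% of all genes. The other type I collagen gene, Col1a1, changed by -0.18 ± 0.42 (SE) with overlap, and 6 of the 11 changes were above 0. Of 10 pericyte and smooth muscle markers 1 rose (Mcam) and 1 fell (Cnn1). Their median change was 1.10, with 7 of the 10 above 0 and 6 of at least 1, against 9.92% of all genes at 1 or more. Of 10 macrophage markers 1 rose (Mrc1, also made by sinusoidal endothelium). In such bulk samples, fewer cells of a type and less RNA per cell cannot be told apart, and the part of the cell mixture in the results below was not tested.

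**Figure D1:**
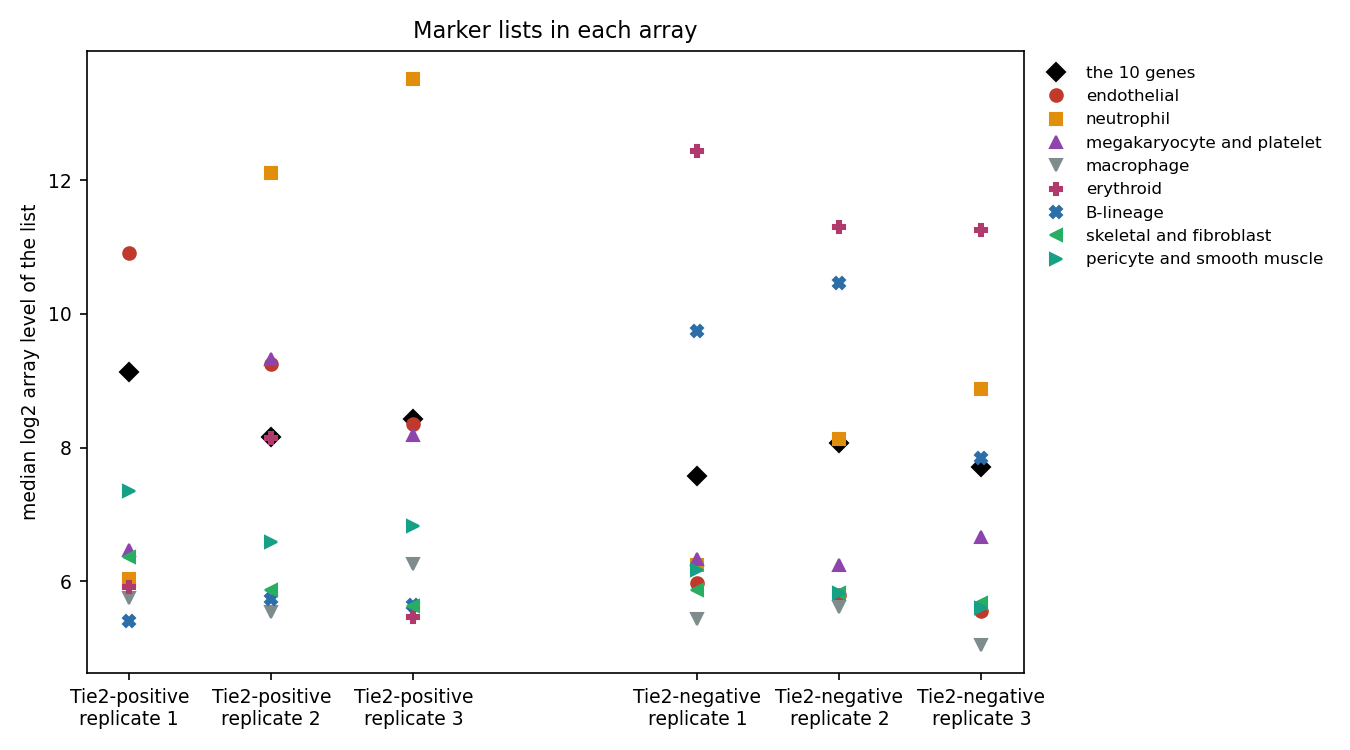
Median log2 array level of each marker list (y axis) in each of the 6 arrays (x axis), with the median of the 10 BMP and TGF-beta genes as diamonds. Endothelial medians run from 8.36 to 10.91 in the Tie2-positive and from 5.56 to 5.98 in the Tie2-negative arrays, and neutrophil medians are highest in Tie2-positive replicates 2 and 3.

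All 10 genes had higher means in the Tie2-positive population. Smad6, Bmpr2 and Tgfbr2 rose in limma, by 4.02-fold, 4.20-fold and 6.27-fold, and the other 7 did not pass. Thus 3 of 10 were called higher, where 4.86% of all genes were, and 0 of 10 were called lower, where 2.53% of all genes were. In 9 of the 10, all except Smad7, the 3 Tie2-positive values lay above the 3 Tie2-negative values, which held for 15.2% of all genes. These 9 also had an unadjusted p under 0.05 in limma, as did 5203 of all 18193 genes, 2369 of them with a higher mean in the Tie2-positive population. The median change of the 10 genes was 1.49, against -0.11 over all genes, and 8 of the 10 changed by at least 1, against 9.92% of all genes. The genes were chosen with earlier results of these arrays known, so these counts are a description.

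**Figure D2:**
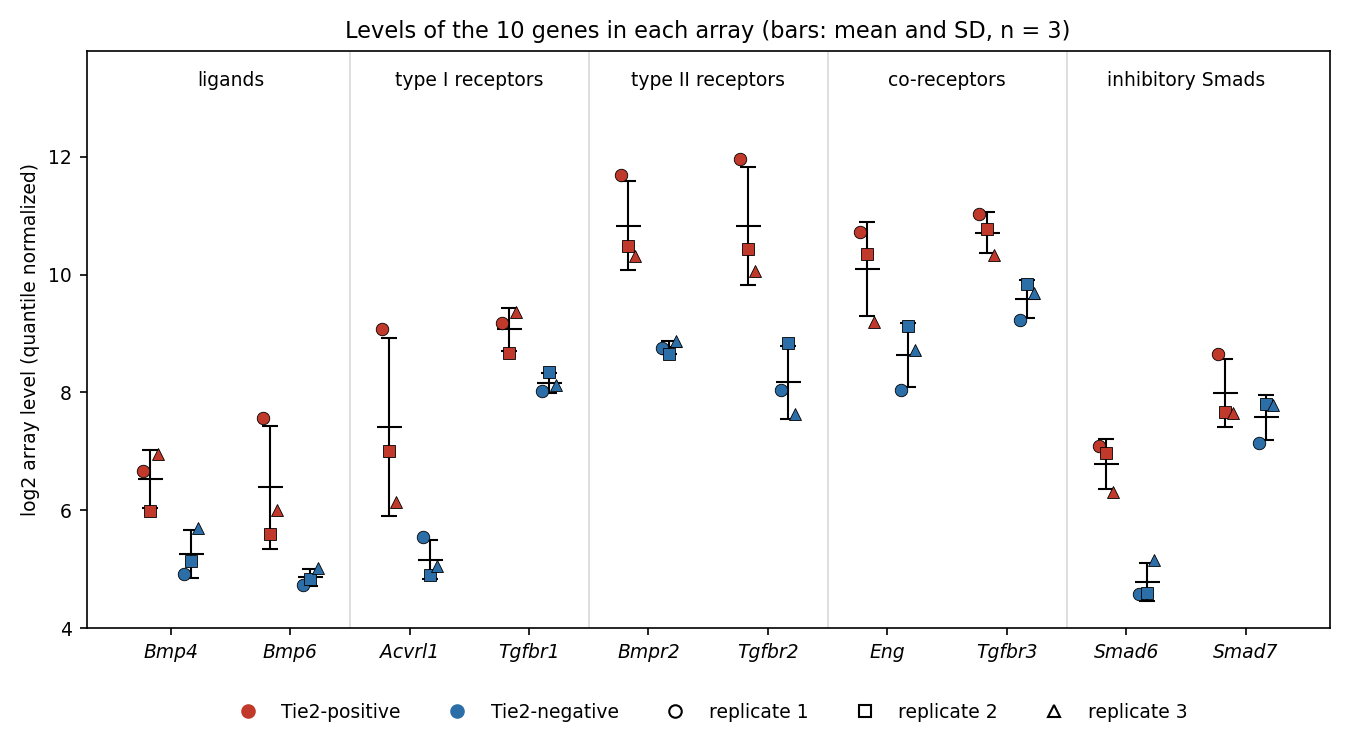
Log2 array level (y axis) of each of the 10 genes (x axis, by role) in the Tie2-positive arrays on the left and the Tie2-negative arrays on the right of each pair, with 1 symbol per replicate and bars for the mean and SD (n = 3). The populations stand apart for every gene except Smad7, and Acvrl1 spreads most among the Tie2-positive arrays (SD 1.51).

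The upstream sequences of the 3 genes that rose are shown because these genes passed the test. Whether they share regulation was not tested. They are the 250 bases before the annotated start, from RefSeq (GRCm38.p6), written 5′ to 3′ towards the gene. Capitals mark the motifs searched on both strands: the Smad-binding motifs CAGAC and GTCTAGAC, the GC-rich Smad1/5 motif GGCGCC, and the ETS motifs ACCGGAAG and GGAAGTG, which share the letters GGAAG and can overlap.
Bmpr2 (chr1:59764029-59764278, + strand): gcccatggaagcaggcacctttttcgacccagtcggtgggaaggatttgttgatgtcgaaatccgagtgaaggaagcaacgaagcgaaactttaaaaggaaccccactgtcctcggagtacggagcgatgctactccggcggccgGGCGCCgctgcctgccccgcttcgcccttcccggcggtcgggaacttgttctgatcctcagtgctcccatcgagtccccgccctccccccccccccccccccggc
Tgfbr2 (chr9:116175364-116175613, - strand): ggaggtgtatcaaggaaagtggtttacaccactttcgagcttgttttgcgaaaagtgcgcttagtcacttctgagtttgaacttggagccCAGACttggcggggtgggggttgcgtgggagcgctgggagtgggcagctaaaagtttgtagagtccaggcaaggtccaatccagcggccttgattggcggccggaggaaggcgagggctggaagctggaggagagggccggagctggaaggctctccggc
Smad6 (chr9:64022060-64022309, - strand): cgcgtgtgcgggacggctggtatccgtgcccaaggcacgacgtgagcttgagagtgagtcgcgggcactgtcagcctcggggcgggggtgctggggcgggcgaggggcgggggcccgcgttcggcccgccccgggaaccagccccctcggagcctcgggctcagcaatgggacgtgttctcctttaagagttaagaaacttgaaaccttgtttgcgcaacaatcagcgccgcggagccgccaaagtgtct
Bmpr2 held GGCGCC, 105 to 100 bases before its start, a motif found in 9.59% of 32851 windows of this length. Tgfbr2 held CAGAC, 160 to 156 bases before its start, found in 42.2% of windows. Smad6 held none of the 5 motifs. Among the other genes with a RefSeq window, Eng held 2 CAGAC matches and 1 GGAAGTG match (8.55% of windows) and Bmp6 held 1 CAGAC, and Bmp4 had no match. Of the Tgfbr1 windows, at 2 annotated starts, 1 held GGCGCC and the other CAGAC and GGAAGTG. The windows of all 7 genes with a sequence contained no GTCTAGAC (0.167% of windows) and no ACCGGAAG (1.72%). A match is a stretch of letters and no shown binding site, and its absence says only that these letters are not in the window.

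Both type II receptor genes rose. Bmpr2, the type II receptor for BMPs, gave 11.69, 10.49 and 10.32 in Tie2-positive replicates 1, 2 and 3, against 8.76, 8.66 and 8.87 in Tie2-negative replicates 1, 2 and 3. The populations were separated by a gap of 1.45, and the Tie2-negative arrays lay close together (SD 0.11, n = 3). Its change was 2.07 ± 0.38 (SE; 95% interval 1.17 to 2.97; limma adjusted p = 0.0275). A further Bmpr2 probe set changed by 2.09 and passed when all probe sets were tested (limma adjusted p = 0.0472), and the third did not differ by more than its error (-0.10 ± 0.22, SE). Tgfbr2, the type II receptor for TGF-beta, gave 11.96, 10.43 and 10.07 in the Tie2-positive arrays, against 8.05, 8.84 and 7.63 in the Tie2-negative arrays. All Tie2-positive values were above all Tie2-negative values, with replicate 1 the highest. Its change was 2.65 ± 0.55 (SE; 95% interval 1.34 to 3.96; limma adjusted p = 0.0383), the largest of the 10 genes. Its other probe sets were dim, with changes of 0.48 ± 0.26 and -0.21 ± 0.15 (SE), and did not pass. With the probe sets of each gene averaged, neither passed (Bmpr2 1.35, adjusted p = 0.0661; Tgfbr2 0.98, adjusted p = 0.0812), and neither passed in limma when Tie2-positive replicate 2 was left out (0.0601 and 0.0818), nor without Tie2-negative replicate 1 (0.112 and 0.139), 2 (0.111 and 0.0947) or 3 (0.0820 and 0.112).

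The type I receptor genes were higher without passing the test. Acvrl1, which encodes ALK1, gave 9.08, 7.01 and 6.14 in Tie2-positive replicates 1, 2 and 3, against 5.54, 4.90 and 5.05 in the Tie2-negative arrays. The populations did not overlap, but the Tie2-positive arrays spread widely, with replicate 1 far above the others. Its change was 2.24 ± 0.70 (SE; 95% interval 0.58 to 3.90; limma adjusted p = 0.0986). Without Tie2-positive replicate 1 the change was 1.40 and passed (adjusted p = 0.0302), as it did without Tie2-positive replicate 3 (2.85, adjusted p = 0.0486). Acvrl1 did not pass in the other fits with 1 array left out (limma adjusted p up to 0.229). Its second probe set changed by 1.31 ± 0.59 (SE; adjusted p = 0.221 over all probe sets), also with separate populations and replicate 1 the highest. Tgfbr1, the type I receptor for TGF-beta (ALK5), gave 9.18, 8.67 and 9.37 in the Tie2-positive arrays, against 8.02, 8.34 and 8.12 in the Tie2-negative arrays. Here replicate 3 was the highest of the Tie2-positive arrays, and the gap between the populations was 0.32. Its change was 0.91 ± 0.25 (SE; 95% interval 0.30 to 1.51; limma adjusted p = 0.0776), and it passed in 1 alternative, median-centred arrays (1.10, adjusted p = 0.0486). Its other probe sets gave -0.13 ± 0.20 and 0.08 ± 0.19 (SE), with overlapping populations.

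The co-receptor genes were also higher in every Tie2-positive array, and neither passed. Eng, endoglin, gave 10.73, 10.35 and 9.19 in Tie2-positive replicates 1, 2 and 3, against 8.05, 9.12 and 8.73 in the Tie2-negative arrays. The lowest Tie2-positive value stood only 0.07 above the highest Tie2-negative value. In the second Eng probe set the 3 values were 11.12, 9.57 and 8.19 in the Tie2-positive arrays, against 6.48, 7.49 and 7.51 in the Tie2-negative arrays. That probe set changed by 2.46 ± 0.70 (SE; adjusted p = 0.0931 over all probe sets), against 1.46 for the probe set used (95% interval 0.35 to 2.56; limma adjusted p = 0.103). Without Tie2-positive replicate 3, the probe set used changed by 1.93 and passed (adjusted p = 0.0423). In the other fits with 1 array left out it did not pass (limma adjusted p up to 0.246). Tgfbr3, betaglycan, which presents TGF-beta2 to its receptors, gave 11.03, 10.77 and 10.33 in the Tie2-positive arrays, against 9.23, 9.85 and 9.70 in the Tie2-negative arrays. The populations were separate and each spread by less than their difference (SD 0.35 and 0.32, n = 3 each). Its change of 1.12 ± 0.27 (SE; 95% interval 0.48 to 1.76) missed the threshold narrowly in limma (adjusted p = 0.0555) and passed with the values as deposited (1.22, adjusted p = 0.0498), among others. With 1 array left out in turn, Tgfbr3 passed in 0 fits (limma adjusted p from 0.0525 to 0.152). Its dimmer probe set went the other way (-0.37 ± 0.22, SE) without a call, and over the mean of both the change was 0.38 (adjusted p = 0.296).

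**Figure D3:**
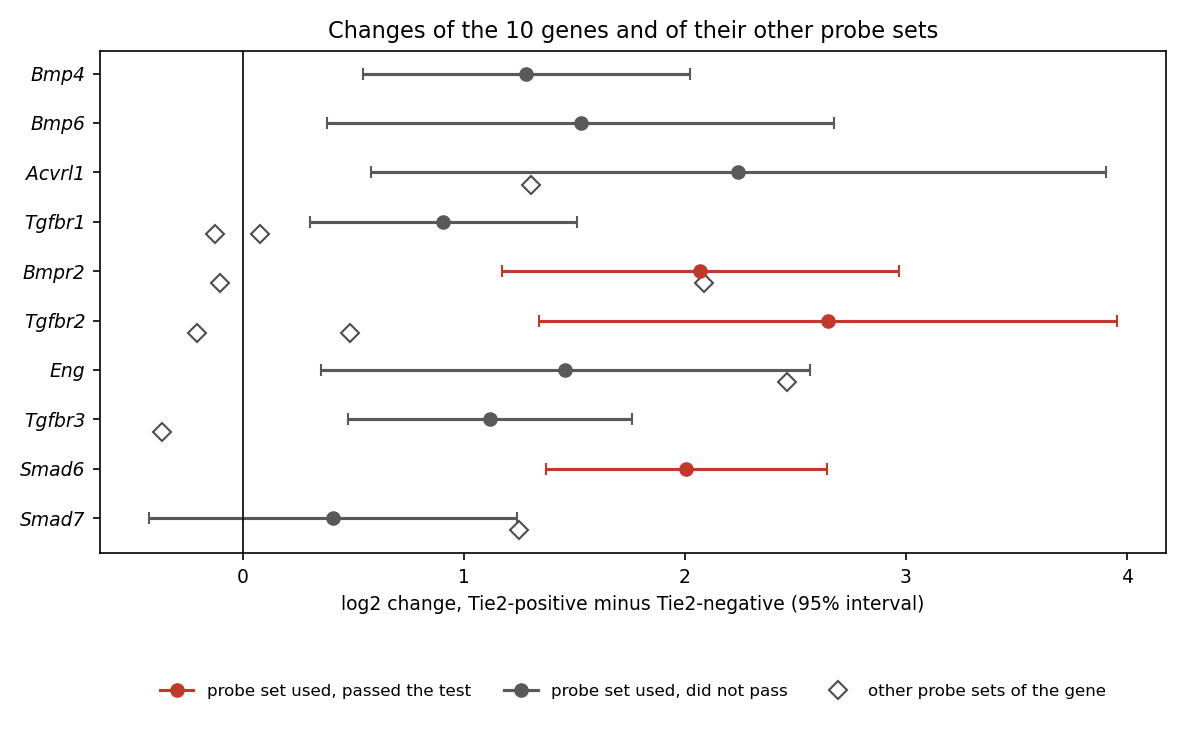
Log2 change (x axis, Tie2-positive minus Tie2-negative) of the 10 genes (y axis), as points with 95% intervals for the probe set used and open diamonds for the other probe sets. The intervals of Bmpr2, Tgfbr2 and Smad6 (red) belong to genes that passed, Smad7 is the only gene whose interval spans 0, and 4 diamonds lie below 0.

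The inhibitory Smads differed in outcome. Smad6, which acts mainly on BMP signalling, gave 7.09, 6.97 and 6.31 in Tie2-positive replicates 1, 2 and 3, against 4.59, 4.60 and 5.16 in the Tie2-negative arrays. The gap between the populations was 1.15, and the Tie2-positive arrays were close to one another (SD 0.42, n = 3). Its change was 2.01 ± 0.27 (SE; 95% interval 1.37 to 2.64), with the lowest adjusted p of the 10 genes in limma (0.0132), from its single probe set. With 1 array left out in turn it passed in 4 of 6 fits, with changes from 1.85 to 2.21, and failed without Tie2-negative replicate 1 (adjusted p = 0.0720) or 2 (0.0710). Smad7, which acts on both TGF-beta and BMP signalling, gave 8.65, 7.67 and 7.66 in the Tie2-positive arrays, against 7.14, 7.81 and 7.79 in the Tie2-negative arrays. Only Tie2-positive replicate 1 stood above all Tie2-negative values. Its change was 0.41 ± 0.35 (SE; 95% interval -0.43 to 1.24; limma adjusted p = 0.461), and without Tie2-positive replicate 1 it was 0.08. Its second probe set, of a kind that can match other transcripts (x_at), gave 6.27, 5.77 and 5.72 in the Tie2-positive arrays, against 3.97 to 5.04 in the Tie2-negative arrays. That change of 1.25 ± 0.32 (SE) came with separate populations and an adjusted p of 0.0704 over all probe sets in limma. The difference between the changes of Smad6 and Smad7 was not tested.

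Both ligand genes were higher without passing. Bmp4 gave 6.66, 5.99 and 6.95 in Tie2-positive replicates 1, 2 and 3, against 4.92, 5.13 and 5.71 in the Tie2-negative arrays, with separate populations. Its change was 1.28 ± 0.31 (SE; 95% interval 0.54 to 2.02; limma adjusted p = 0.0563). Bmp6, known in liver endothelium as a regulator of iron balance, gave 7.57, 5.59 and 6.01 in the Tie2-positive arrays, against 4.73, 4.84 and 5.02 in the Tie2-negative arrays. Replicate 1 stood far above the other Tie2-positive arrays. Its change was 1.53 ± 0.48 (SE; 95% interval 0.38 to 2.68; limma adjusted p = 0.102), and without Tie2-positive replicate 1 it was 0.93 and passed (adjusted p = 0.0219). Bmp6 did not pass in the other fits with 1 array left out (limma adjusted p up to 0.235). Each ligand gene had 1 probe set, and their mean levels, like that of Smad6, lay below the 40th percentile of all genes. The table carries no detection calls, so whether the Tie2-negative values of these dim probe sets lie above background is unknown.

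Tie2-positive replicate 1, the array with the highest endothelial and the lowest neutrophil marker medians of its population, was the highest Tie2-positive array for 8 of the 10 genes. It was the highest for 10 of 10 endothelial, 10 of 11 skeletal and fibroblast, 6 of 10 macrophage and 4 of 10 pericyte and smooth muscle markers. It was the highest for 2 of 9 B-lineage, 1 of 8 megakaryocyte and platelet, 0 of 8 erythroid and 0 of 8 neutrophil markers, for 80.8% of the 884 genes that rose and for 42.1% of all genes. The exceptions were Tgfbr1 and Bmp4, both highest in replicate 3, where the neutrophil median was 13.51. The macrophage median was also highest in replicate 3 (6.26, against 5.75 and 5.54 in replicates 1 and 2). The medians of the other marker lists were highest in replicate 1 or 2. The part of any cell type's RNA in the values of Tgfbr1 and Bmp4 was not tested. A fit of Tie2-positive replicate 1 alone against the Tie2-negative arrays has no spread within the Tie2-positive population, so only its changes are given. In that fit the changes of all 10 genes were larger than those of all arrays. The changes of Smad7 (1.08), Acvrl1 (3.85) and Bmp6 (2.62) were over 1.5 times those of all arrays.

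Of the other genes of the pathway, 92 of 100 listed were measured. In limma 16 rose (17.4%), 1 fell and 75 did not pass, against 4.86% and 2.53% of all genes, and their median change was 0.22, against -0.11 over all genes. The rising genes numbered 8 when Tie2-positive replicate 2 was left out and 3 when Tie2-negative replicate 3 was (Tgfb2, Acvr1 and Id2). Leaving out Tie2-negative replicate 1 or 2 left 0. When Tie2-positive replicate 2 was left out, Acvr1b, Bambi, Cd109, Smad1, Ski, Fkbp1a, Crim1, Ccn2, Snai2 and Lefty1 did not pass, and Tie2-positive replicate 3 had the same effect on Tgfb2, Lefty1, Acvr1b, Fkbp1a and Snai2. Of the 17 genes called, 12 had further probe sets, of which 7 had at least 1 called the same way, and 0 had one called the opposite way. Of the 75 genes that did not pass, 5 had other probe sets that did, each time higher, when all probe sets were tested. That count is per gene, whereas 4.99% of all probe sets passed, counted per probe set and in either direction. The 5 genes were Smad4, Ccn1, Id4, Inhbb and Thbs1, of which all but Smad4 are named after their values were seen. Inhbb, which encodes an activin and inhibin subunit, differed most of the 5 between its probe sets, with changes of 3.55 ± 0.77 (SE; limma adjusted p = 0.0479 over all probe sets) and, in the brighter one used, -0.28 ± 0.19 (SE). Id4 changed by 1.71 and 1.61 in its other probe sets, against 0.20 in the one used.

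Among 14 other receptors and co-receptors, 4 rose and 0 fell. Acvr1, the type I receptor ALK2 that transmits BMP signals, gave 10.02, 8.27 and 8.11 in Tie2-positive replicates 1, 2 and 3, against 4.28, 3.99 and 4.51 in the Tie2-negative arrays. Every Tie2-positive value exceeded every Tie2-negative value by over 3. Its change of 4.54 ± 0.50 (SE; limma adjusted p = 0.0104) was the largest of the pathway lists, but its other probe sets changed by 0.39 and -0.27 and did not pass. Bambi, a decoy receptor without a kinase domain, rose by 3.25 ± 0.67 (SE), Cd109, a co-receptor that dampens TGF-beta signalling, by 3.14 ± 0.69 (SE), and the activin type I receptor gene Acvr1b by 1.29 ± 0.26 (SE), with adjusted p from 0.0370 to 0.0438. Among those that did not pass, the BMP type I receptor gene Bmpr1a changed by 0.59 ± 0.66 (SE) and the activin type II receptor gene Acvr2a by 1.29 ± 0.40 (SE; limma adjusted p = 0.0961).

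Of 6 other Smads 1 rose. Smad1, a receptor-regulated Smad of the BMP branch, gave 11.00, 9.47 and 8.75 in Tie2-positive replicates 1, 2 and 3, against 5.66, 6.32 and 6.54 in the Tie2-negative arrays. The populations were far apart, and all 3 of its probe sets passed. Its change was 3.57 ± 0.58 (SE; limma adjusted p = 0.0204). Smad4, the common partner, changed by 1.23 ± 0.31 (SE; adjusted p = 0.0604), and Smad3, of the TGF-beta branch, by -0.09 ± 0.26 (SE; adjusted p = 0.828), and neither passed. When all probe sets were tested, other Smad4 probe sets passed, with changes of 1.68 and 1.52. Smad5 (1.92 ± 0.48, SE, limma adjusted p = 0.0607) and Smad9 (-0.15 ± 0.14, SE), of the BMP branch, did not pass. Nor did Smad2, of the TGF-beta branch (0.50 ± 0.28, SE). Differences between the changes of these Smads, Smad1 and Smad3 included, were not tested.

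Among 22 other ligands, Tgfb2 rose by 2.56 ± 0.50 (SE; limma adjusted p = 0.0329), and Lefty1, an inhibitory ligand, fell by 0.97 on the log2 scale (SE 0.18; adjusted p = 0.0297). Tgfb1 changed by 0.79 ± 0.30 (SE) and Gdf3 by -0.57 ± 0.29 (SE), and neither passed. The ligands of ALK1, Gdf2 and Bmp10, did not pass either, with changes of -0.36 and -0.47; they are named because of that pairing and were chosen after their values were seen. Among 21 extracellular antagonists and carriers, 4 rose and 0 fell: Crim1, which binds BMPs (3.21 ± 0.64, SE), the latent TGF-beta binding proteins Ltbp3 (2.28 ± 0.39, SE) and Ltbp4 (2.03 ± 0.33, SE), and Nrros, which anchors latent TGF-beta1 on myeloid cells (1.54 ± 0.22, SE). Their adjusted p in limma ran from 0.0152 to 0.0350. Twsg1 (-0.02 ± 0.27, SE) and Kcp (-0.25 ± 0.17, SE), which bind BMPs, did not pass. Nrros gave 9.89, 9.73 and 10.10 in Tie2-positive replicates 1, 2 and 3, against 8.12, 8.50 and 8.49 in the Tie2-negative arrays. The part of myeloid RNA in these values was not tested.

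Of 14 intracellular regulators, 2 rose: Ski, a repressor of Smad-driven transcription (1.58 ± 0.31, SE), and Fkbp1a, which binds type I receptors and holds them inactive (1.68 ± 0.35, SE), with limma adjusted p of 0.0343 and 0.0395. In 10 of the 14 the Tie2-positive values lay above the Tie2-negative ones, against 15.2% of all genes. The ubiquitin ligase genes Trim33 (-0.48 ± 0.24, SE) and Stub1 (0.49 ± 0.23, SE) did not pass. Of 15 genes known as targets of the pathway, 4 rose and 0 fell: Id2, which blocks DNA binding of E proteins (4.52 ± 0.46, SE), Ccn2, the connective tissue growth factor gene (3.71 ± 0.78, SE), the matrix gene Tgfbi (3.41 ± 0.50, SE) and the transcription factor Snai2 (2.97 ± 0.61, SE), with adjusted p from 0.0104 to 0.0400. Id3 (2.92 ± 0.86, SE; limma adjusted p = 0.0861) and Klf10 (0.64 ± 0.46, SE) did not pass. When x_at and s_at probe sets were left out, Tgfbi changed by 1.72 and Snai2 by 1.90, and neither passed. Each of these genes also responds to other signals.

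**Figure D4:**
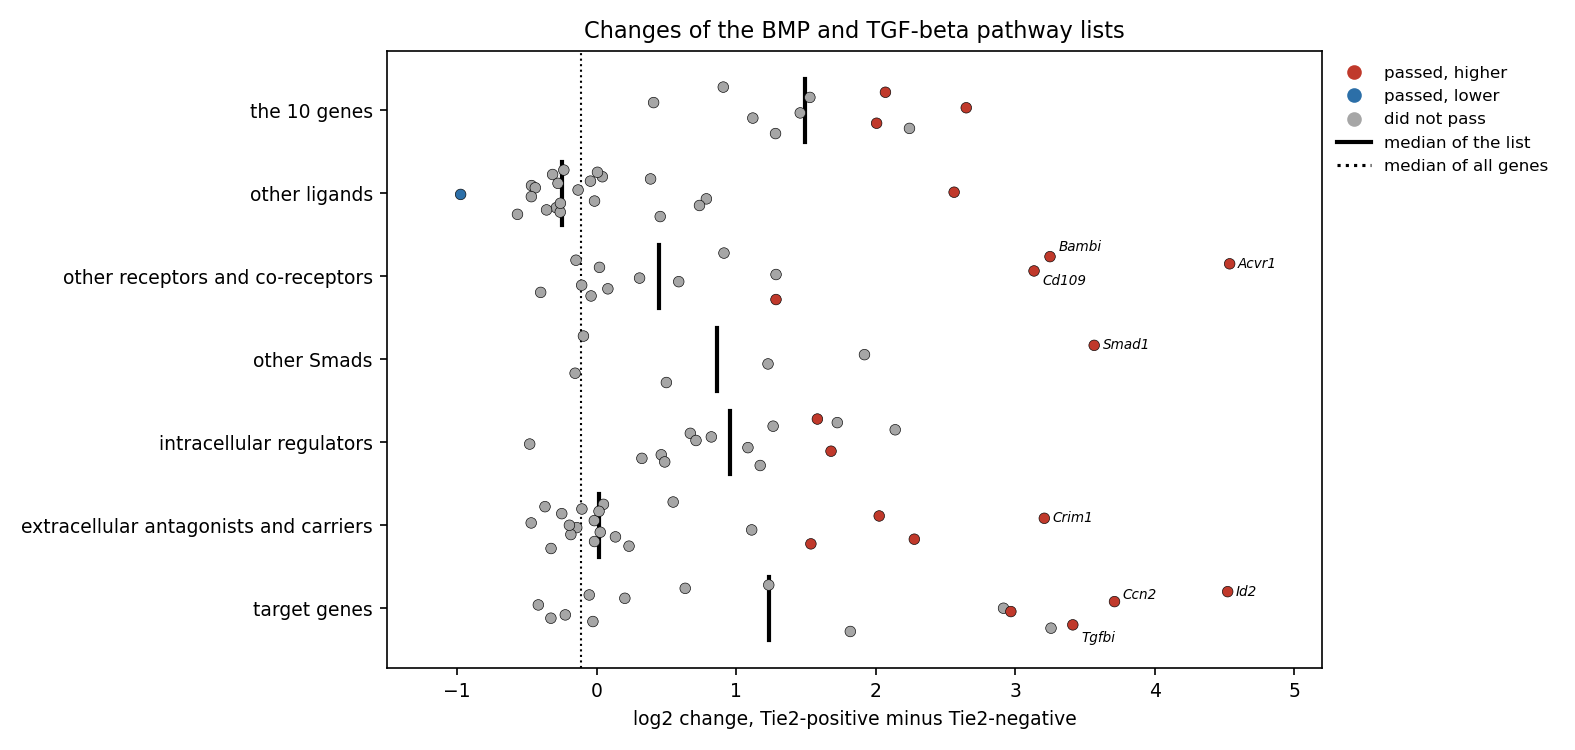
Log2 change (x axis, Tie2-positive minus Tie2-negative) of each gene in the pathway lists (y axis), with genes that passed in red (higher) or blue (lower), a bar for each list's median and a dotted line for the median of all genes (-0.11). The 10 genes have a median of 1.49, the other ligands one of -0.25.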

How the data were processed

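The authors deposited 1 log2 value per probe set and array (45101 probe sets, values from 2.56 to 14.78); that the scale is log2 was read from the range. Their summary and normalization by the authors are not given in the sources used here. Per the labels' protocols, RNA was amplified in a double round, hybridised to Affymetrix 430-2.0 arrays and scanned with GCOS 1.1.1. Populations and replicate numbers came from the sample titles, whose dashes were read as minus signs.

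The arrays' 75th percentiles ran from 7.45 to 7.53 in the Tie2-positive and from 7.26 to 7.33 in the Tie2-negative population, so the values were quantile normalized, which removed that difference too. The 64 array controls were left out. Of the remaining probe sets 34945 had 1 gene symbol in the platform annotation, 932 had several and 9160 were unnamed here. Each of 18193 genes was represented by its probe set with the highest mean. The fit was limma 3.58.1 under R 4.3.3, with lmFit and a trended eBayes on 6 arrays without covariates, adjusted over all genes. It was tested on simulated data. Precision is limited by the number of arrays. No array pair held identical values.

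The 10 genes, the pathway lists and the marker lists were chosen with earlier results of these data known. All 10 genes are named. From each pathway list, the text names every called gene and, of the rest, the 2 with the highest mean level. Gdf2, Bmp10, Ccn1, Id4, Inhbb, Thbs1, Smad2, Smad5, Smad9 and the markers Col1a1 and Col1a2 were added after their values were seen. Of the listed genes, 8 pathway genes were unnamed on the arrays. Alternatives were a block on the replicate number, values as deposited, median-centred arrays, leaving out genes under the 40th percentile of mean level, the mean of all probe sets, no x_at or s_at probe sets, all probe sets tested, no trend, array weights, each array left out, and Tie2-positive replicates 2 and 3 left out. Gene coordinates are not given, since the array tables name no genome build; promoter windows carry that of RefSeq.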

Additional observations from a re-analysis of the deposited data

How the results depend on the processing

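All 10 genes kept a positive change in each alternative that measured them. The number of the 10 that rose (3 in the main analysis, 0 lower throughout) was 5 with arrays centred on their medians, 1 over the mean of all probe sets, 6 with array weights, and 0 to 5 with 1 array left out. It stayed within 1.5 times of 3 in the other alternatives except the block, leaving aside the fit without Tie2-positive replicates 2 and 3. The calls of that last fit are not counted here, because 1 Tie2-positive array shows no spread. The filter on low levels removed Smad6, Bmp4 and Bmp6 and left 3 of 7. The array weights were 0.25, 5.83 and 0.84 for Tie2-positive replicates 1, 2 and 3, so that fit leaned mostly on Tie2-positive replicate 2. Of the other pathway genes, 30 rose and 8 fell with array weights, and 0 to 22 rose and 0 to 1 fell with 1 array left out. Over all genes limma called 1345, against 2246 of 45037 when all probe sets were tested, 4639 with array weights, 3634 with Tie2-positive replicates 2 and 3 left out, and 0 to 2151 with 1 array left out. The 2 fits with 0 calls left out Tie2-negative replicate 1 or 2; their smallest adjusted p was 0.0510 and 0.0600, and 4026 and 3986 genes had an unadjusted p under 0.05. The causes were not tested. With a block on the replicate number, limma called 0 genes overall (smallest adjusted p 0.0521; 5080 genes at an unadjusted p under 0.05), so 0 of the 10 and 0 pathway genes. Same-numbered arrays' deviations correlated by 0.140, 0.005 and 0.186, and those of other array pairs by -0.162 to 0.055. The values of replicates 1 and 3 were the highest, but Tie2-positive replicate 2 correlated best with Tie2-negative replicate 3 (0.055). These values do not settle whether the numbers mark pairs, and the main fit did not take them as pairs. The number of arrays and the lack of detection calls limit what dim probe sets can show.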
